A study of Mus musculus with 52 samples.

Results

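Interferon-stimulated genes are the genes that cells switch on after interferon binds its receptor. The 47 examined here were taken by gene name from a list of well-known members of this response. They were chosen with earlier results of these data known. All 47 had a row in each of the 4 deposited tables. Those tables held 55487 genes for the first kainic acid cohort and for the CNO set, 34042 for the second kainic acid cohort and 53700 for cultured astrocytes. After a filter on low values, 44 of the 47 were tested in the first cohort, 45 in the CNO set, 47 in the second cohort and 43 in astrocytes. Oas2 and Oas3 missed the filter in 3 tables, all but the second cohort, Oasl1 did not pass it in the first cohort or the astrocytes, and Mx1 did not pass it in the astrocytes. The 47 fell into roles: 4 transcription factors of the pathway, 3 genes of the Isg15 conjugation and feedback loop, 7 nucleic acid sensors, 14 effectors that act on RNA or nucleotides, 8 membrane proteins and GTPases, 4 genes of ADP-ribosylation and ubiquitin transfer, and 7 others.

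The study asked how lipid-laden astrocytes relate to seizures in mice, and it holds 52 RNA-seq libraries in 17 groups, all labelled C57BL/6. The first brain cohort had 3 libraries of mice treated with kainic acid (KA), a glutamate receptor agonist used to model temporal lobe epilepsy (TLE), and 3 of untreated mice of the same model. The CNO set had 3 libraries of mice treated with CNO, a drug generally used to activate an engineered receptor, and 3 of untreated mice of that model. In the second brain cohort 3 libraries were labelled A2aR knockdown with KA, 3 Apoe knockout with KA, 4 KA and 3 untreated. Cultured Apoe knockout astrocytes came as 4 groups of 3 libraries, given neuron-conditioned medium, oleic acid or palmitic acid or left untreated. Wild-type astrocytes came as 5 groups of 3, which had the same treatments and, in addition, medium conditioned by Apoe knockout neurons. The sources used here do not give the brain region, the doses, the times, the engineered receptor behind the CNO model or the means of the A2aR knockdown, and the labels do not describe any treatment of the neurons that gave the medium. Titles of all libraries given medium carry KA, in each of the 3 medium groups, and no label says whether that means KA-treated neurons. Titles of the third untreated and the third palmitic acid library of the knockout cultures carry the word mix, which the labels do not explain; without the first of these 18 of 22 genotype calls passed, and without the second 24 of 25 palmitic acid calls. No label says that each library of a group is its own animal or culture. The p-values therefore speak of the spread among libraries, which may be a technical spread.

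Type I interferons signal through a cell-surface receptor to a complex that includes Stat2 and Irf9 and binds interferon-stimulated response elements in the promoters of target genes. The products sense foreign nucleic acid, block its translation or its exit from the cell, and in part feed back on the pathway: Irf7 drives more interferon, and Usp18 damps the receptor and removes the ubiquitin-like protein Isg15 from its targets. In brain, microglia, endothelium and astrocytes can all mount this response.

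Of the 47, 34 had an entry in a RefSeq promoter table of mouse build GRCm38.p6, which covers 250 bases before and 50 after each annotated start. The response element, searched as GAAANNGAAA on both strands, was in a promoter of 18 of these 34 genes (52.9%), against 3.99% of the 27025 genes of the table. The gamma-activated site, searched as TTCNNNGAA on both strands, was in 8 of 34 (23.5%), against 9.55% of all genes. The 2 motifs can overlap in a run of GAAA repeats, and a match is a stretch of letters, not a bound site. The 250 bases upstream of the start are shown for 4 members whose levels recur below, each with 2 or more matches, 5′ to 3′ on the gene's own strand with the response element matches in capitals. They come from chr4:156200819-156201068 on the minus strand for Isg15, chr8:71537473-71537722 on the minus strand for Bst2, chr19:34583279-34583528 on the plus strand for Ifit3 and chr19:34640639-34640888 on the plus strand for Ifit1.
Isg15: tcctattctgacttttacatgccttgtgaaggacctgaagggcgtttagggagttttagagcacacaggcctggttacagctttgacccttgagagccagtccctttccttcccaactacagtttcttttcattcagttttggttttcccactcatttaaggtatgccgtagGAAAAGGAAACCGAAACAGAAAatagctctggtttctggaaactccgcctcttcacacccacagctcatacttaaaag
Bst2: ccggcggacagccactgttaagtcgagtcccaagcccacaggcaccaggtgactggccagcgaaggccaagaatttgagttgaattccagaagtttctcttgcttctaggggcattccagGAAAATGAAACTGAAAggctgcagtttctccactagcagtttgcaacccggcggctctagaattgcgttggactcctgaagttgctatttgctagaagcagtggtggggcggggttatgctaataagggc
Ifit3: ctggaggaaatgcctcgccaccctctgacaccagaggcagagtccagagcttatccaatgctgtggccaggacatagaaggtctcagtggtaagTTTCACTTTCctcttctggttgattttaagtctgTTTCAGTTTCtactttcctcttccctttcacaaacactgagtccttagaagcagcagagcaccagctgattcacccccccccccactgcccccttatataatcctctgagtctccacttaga
Ifit1: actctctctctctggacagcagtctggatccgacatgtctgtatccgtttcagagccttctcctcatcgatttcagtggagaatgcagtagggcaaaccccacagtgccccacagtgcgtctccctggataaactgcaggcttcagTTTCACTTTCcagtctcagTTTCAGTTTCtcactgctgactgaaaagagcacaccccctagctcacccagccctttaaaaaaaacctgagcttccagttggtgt

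In Isg15 the capitals hold 3 overlapping matches, the nearest beginning at position -66 from the start. In Bst2 they hold 2 overlapping matches, the nearest at -124. Ifit3 and Ifit1 have 2 separate matches each on the opposite strand, the nearest at -122 in Ifit3 and at -85 in Ifit1. Ifit1, Ifit2, Ifit3 and Ifit3b lie in one cluster on chromosome 19, and Ifit3b shares the matched stretch of Ifit3 with other bases around it. Irf7, Irf9, Lgals3bp, Oasl2 and Xaf1 have no match in this window.

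Some members cannot be told apart cleanly by reads. Of the stretches of 75 bases in its transcripts, Oas1a shares 47.6% with another gene, Oas1g among them, Ifit3 shares 41.1%, mostly with Ifit3b, and Ifit3b shares 35.7%. Ifi204 (13.2%), Herc6 (11.3%), Gbp7 (11.3%) and Rtp4 (10.5%) are the other members above 10%, and their levels depend on how the authors assigned shared reads. Exons of 10 members overlap a gene on the opposite strand, Dtx3l with Parp9 for example, and the sources used here do not say whether strand was used in counting.

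Library facts that touch the results were these. Count totals of the second cohort were 68760648 to 76643829 per library, and the depth behind the TPM (transcripts in proportion to all transcripts of a library) tables is unknown. Apoe was 29.7 to 58.6 TPM in the 3 Apoe knockout brains with KA, against 829.7 to 1467 TPM in the 4 KA brains, and 5.36 to 118 TPM in the Apoe knockout astrocytes, against 2221 to 5024 TPM in the wild-type ones. Adora2a, which encodes A2aR, was 1.75, 2.15 and 1.89 TPM in the libraries labelled A2aR knockdown, inside the range of 1.32 to 2.9 TPM in the KA libraries. The female transcript Xist was at most 0.31 TPM in the KA-treated brains of the second cohort, against 122 to 145 TPM in its untreated brains, so KA and sex cannot be told apart there. It was at most 0.16 TPM in each brain of the 2 other sets. The astrocyte cultures also differed between groups: Xist was 2.79 to 3.81 TPM and the male transcript Ddx3y 31.3 to 33.5 TPM in untreated knockout cultures, against 30.7 to 36.8 and 14.9 to 19.1 TPM in untreated wild-type cultures. Markers of astrocytes summed to 482 to 496 TPM in untreated knockout cultures, against 2130 to 2390 TPM in untreated wild-type ones, and markers of mural cells and fibroblasts were the more abundant list in every group. In bulk samples, fewer cells of a type and less RNA per cell cannot be told apart.

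In the first KA cohort nearly every interferon-stimulated gene was higher in KA than in untreated brain, and 12 of the 44 tested passed the test, all higher. The background share of genes called was 0.183% in either direction and 0.157% higher. The 12 were Ifi27l2a, Lgals3bp, Irf7, Oasl2, Ifit3, Bst2, Ifi204, Ifit1, Ifit3b, Rtp4, Irf9 and Xaf1. The median log2 fold change of the 44 was 2.05, against 0.25 over all genes tested, and the smallest was 0.47 for the sensor Ifi203. In 46 of the 47 every KA library lay above every untreated library, which held for 22.7% of all genes tested, and Ifi203 was the exception. This count takes in members that missed the filter, while the share is of genes past it, also in the CNO set and the astrocytes. At an unadjusted p under 0.05, 43 of the 44 were higher, as were 11.6% of all genes. Zbp1, Ifi204, Oas1a, Oas1b, Rsad2, Mx1, Trim30a, Ifi44 and Phf11d were under 1 TPM in every untreated brain. They passed the filter only through the KA brains and are in these counts, Ifi204 alone of them among the 12.

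Among the pathway's transcription factors, Irf7 had 45.2, 66.5 and 22.4 TPM in KA brains 1, 2 and 3, against 1.7, 1.93 and 2.38 TPM in untreated brains. Irf9, the DNA-contacting subunit of the complex it forms with Stat2, had 26.4, 27.0 and 19.0 TPM in KA brains, against 4.17, 4.0 and 2.67 TPM in untreated brains. Neither gene's groups overlapped, and KA brain 3 was the lowest KA library for both. The log2 fold change was 3.81 ± 0.39 (SE; adjusted p = 0.0319, limma) for Irf7 and 2.44 ± 0.24 (adjusted p = 0.0319) for Irf9, while Stat2 and Irf1 did not pass.

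None of the 3 feedback genes passed. Isg15, the ubiquitin-like modifier, had 60.9, 61.3 and 28.6 TPM in KA brains, against 4.56, 3.19 and 8.19 TPM in untreated brains. The groups were far apart, with KA brain 3 and untreated brain 3 closest to each other, and the log2 fold change of 3.02 ± 0.40 lay just outside the threshold (adjusted p = 0.0524). Of the 7 sensors only Ifi204, a DNA sensor, passed: it had 10.2, 11.5 and 4.65 TPM in KA brains, against 0.17, 0.31 and 0.17 TPM in untreated brains (log2 fold change 2.93 ± 0.33; adjusted p = 0.0346).

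Of the 11 RNA effectors tested, 4 rose. Ifit3, of the RNA-binding Ifit family, had 84.7, 107 and 42.2 TPM in KA brains, against 7.52, 6.89 and 4.91 TPM in untreated brains. Ifit1, which recognises RNA whose cap lacks methylation, had 15.7, 17.1 and 8.38 TPM in KA brains, against 1.13, 0.98 and 0.8 TPM in untreated brains. Oasl2, a protein of the oligoadenylate synthetase family, had 42.2, 59.7 and 23.7 TPM in KA brains, against 3.12, 3.44 and 1.88 TPM in untreated brains. KA brain 3 was the lowest KA library for all 3 genes and still lay well above every untreated library. Their log2 fold changes were 3.33 ± 0.36, 2.85 ± 0.30 and 3.42 ± 0.37 in that order, each with an adjusted p of 0.0319, and Ifit3b, which shares reads with Ifit3, was at 2.84 (adjusted p = 0.0419). Cmpk2, a mitochondrial nucleotide kinase next to Rsad2 on chromosome 12, was at 1.11 and did not pass.

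Among membrane proteins, Bst2 (tetherin), which holds budding virions on the cell surface, had 148, 160.2 and 69.1 TPM in KA brains, against 10.2, 11.3 and 18.3 TPM in untreated brains. Ifitm3, which blocks viral fusion, had 184, 259 and 107 TPM in KA brains, against 27.7, 32.3 and 40.6 TPM in untreated brains. Both were separated without overlap, with Bst2 past the test (log2 fold change 3.10 ± 0.37; adjusted p = 0.0419) and Ifitm3 just outside it (2.35; adjusted p = 0.053). Rtp4 also rose, by 2.67 ± 0.28, with 25.6, 34.4 and 19.1 TPM in KA brains and 4.13, 2.44 and 3.17 TPM in untreated brains. The largest fold change of the list was that of Ifi27l2a, a small hydrophobic protein of the Ifi27 family, at 4.88 ± 0.29 (adjusted p = 0.00538). It had 194, 185 and 104 TPM in KA brains, against 5.44, 4.47 and 3.24 TPM in untreated brains. Lgals3bp, a secreted galectin-binding glycoprotein, followed with 195, 240.3 and 101 TPM in KA brains, against 7.47, 11.6 and 9.56 TPM in untreated brains (4.02 ± 0.34; adjusted p = 0.0218). Again KA brain 3 was the lowest of the KA libraries and far above the untreated ones. None of the 4 genes of ADP-ribosylation and ubiquitin transfer passed.

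Calls in this cohort depended on single libraries. None of the 12 kept its call in every omission of a library. With KA brain 1, KA brain 2 or untreated brain 2 left out 0 members passed and with untreated brain 1 left out 1 passed, while 17 passed without KA brain 3 and 24 without untreated brain 3. Untreated brain 3 stood apart. As deviations from each gene's mean over the cohort, its log2 levels fell with exonic length (Spearman rho -0.513). The other untreated brains had 0.306 and 0.327 by the same measure. Mitochondrial genes held 9.01% of TPM in untreated brain 3, against 15.9% and 16.1% in the other untreated brains. The part of this library in the result was not tested. Removing the length trend, an alternative chosen after seeing the data, gave 20 calls, all higher. With no filter on low values 1 member passed.

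Other parts of the pathway were taken from lists of gene names. No interferon ligand was tested, and the 21 ligands in the table summed to at most 0.21 TPM in any library of this cohort. None of the 15 genes of class I antigen presentation passed, at a median log2 fold change of 1.88, although their summed level was 1286 to 2889 TPM in KA brains, against 458 to 607 TPM in untreated brains. The chemokine Cxcl10 was 31.8, 50.5 and 8.08 TPM in KA brains, against 0.38, 0.35 and 0 TPM in untreated brains, and did not pass (adjusted p = 0.053). All 18 microglial markers were higher at an unadjusted p under 0.05 and none passed the adjusted test. They summed to 1754 to 4418 TPM in KA brains, against 705 to 805 TPM in untreated brains, beside a summed level of the 47 interferon-stimulated genes of 907 to 1857 TPM in KA brains and 215 to 228 TPM in untreated brains. Markers of monocytes and macrophages summed to 75.1 to 226 TPM in KA brains, against 20.3 to 21.8 TPM in untreated brains. The part of these cells in the result was not tested.

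**Figure D1:**
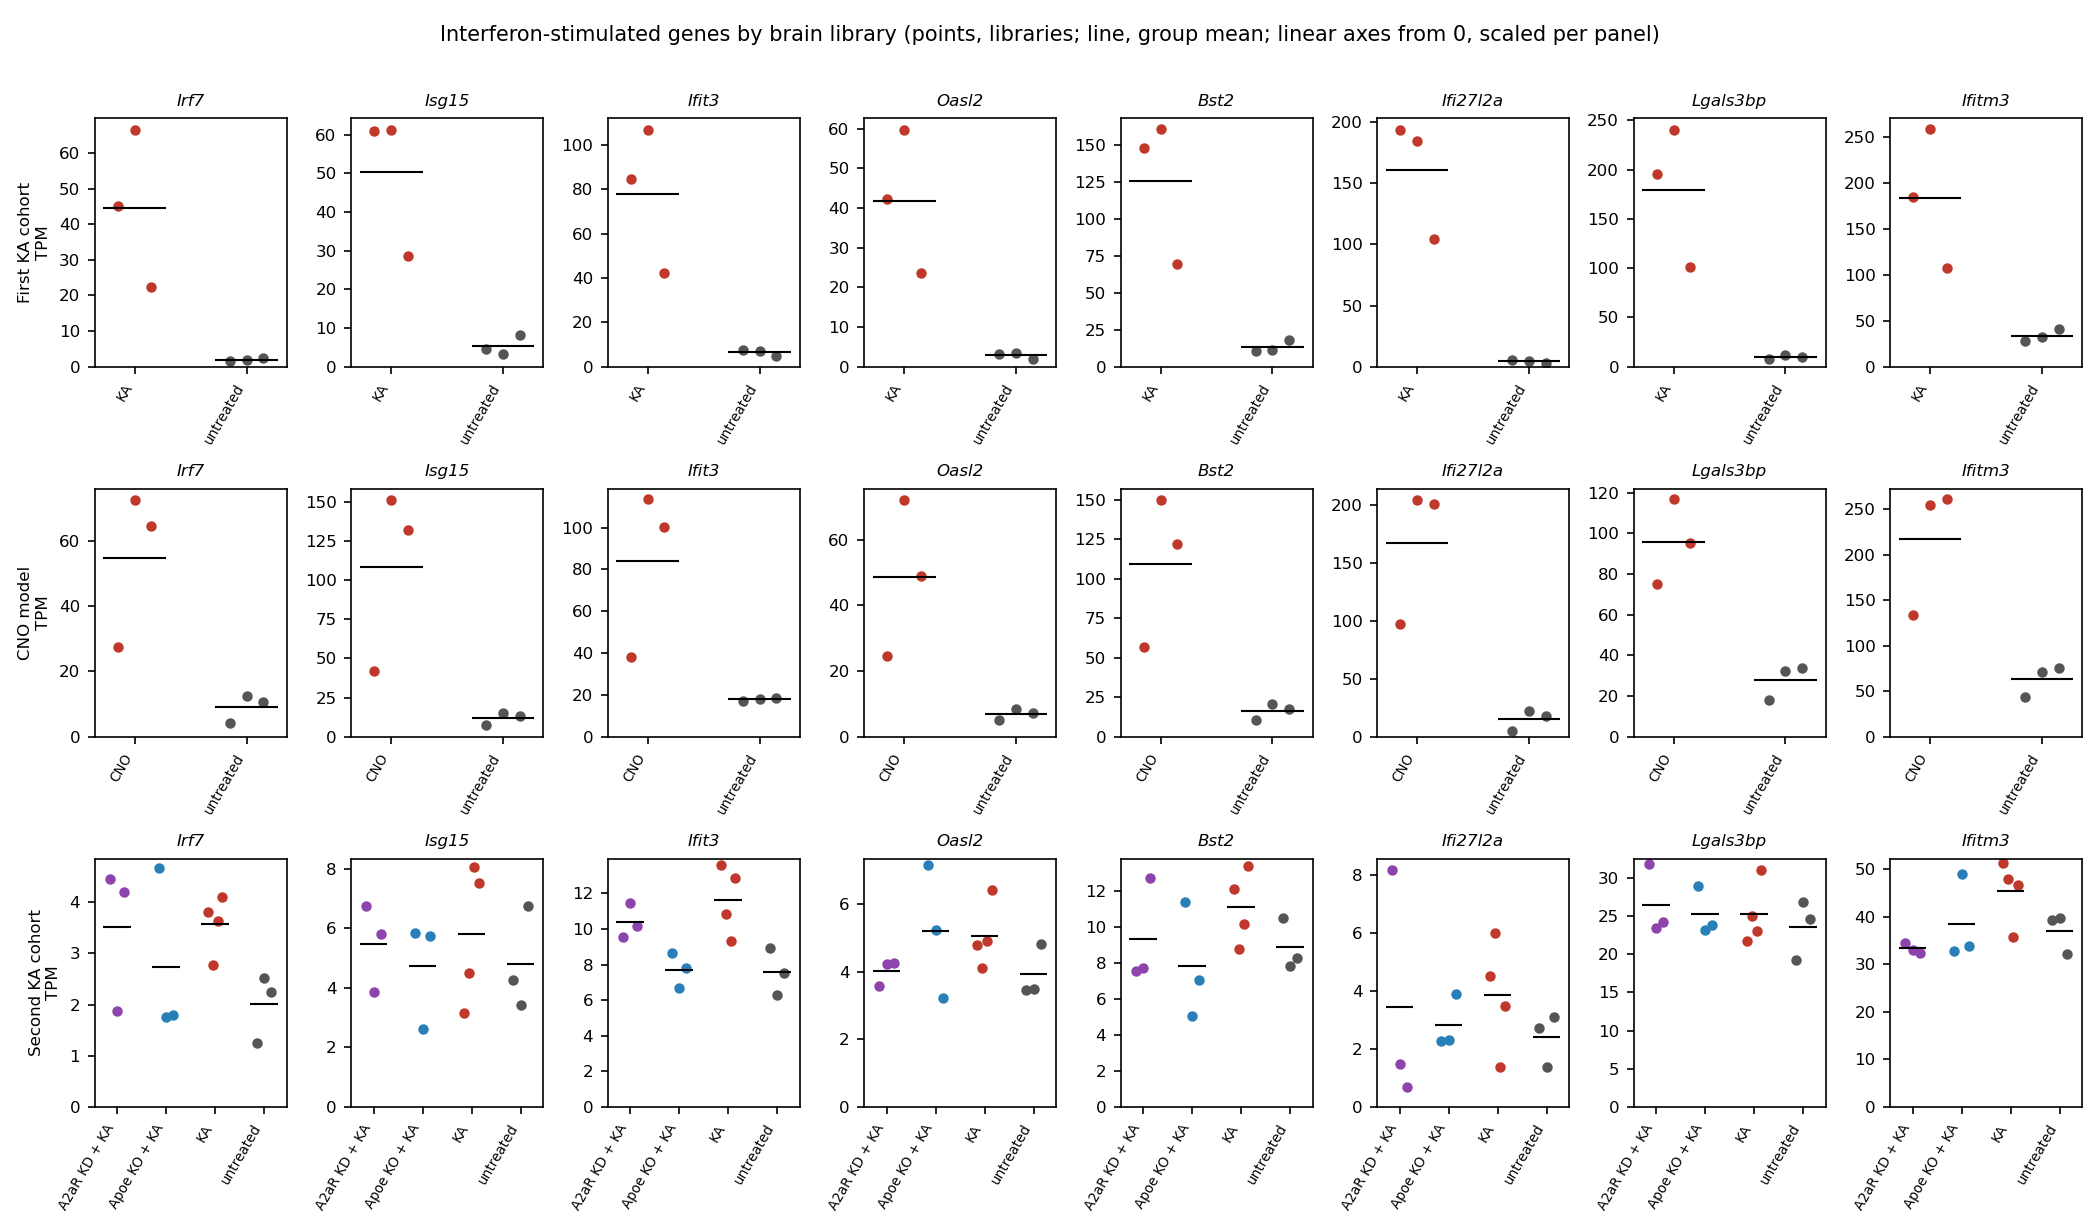
Level of 8 interferon-stimulated genes in TPM (linear axes from 0) in each brain library, by group, in the 2 KA cohorts and the CNO set. The KA libraries of the first cohort and the CNO libraries lie above their untreated libraries for all 8 genes, for example Bst2 at 69.1 to 160.2 TPM in KA brains against 10.2 to 18.3 TPM in untreated ones, while the groups of the second cohort lie close together.

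In the CNO set 20 of 45 genes passed, all higher in CNO than in untreated brain, where the background share called was 3.7% in either direction and 3.46% higher. The median log2 fold change was 1.48, against 0.04 over all genes tested, and 43 of the 45 were higher at an unadjusted p under 0.05, as were 12.3% of all genes. Oas1a, Oas1b, Oasl1 and Mx2 were under 1 TPM in every untreated brain. They passed the filter only through the CNO brains and are in these counts, Oas1a and Oas1b among the 20. Every CNO library lay above every untreated library in 41 of the 47, as in 15.6% of all genes tested. No label pairs the libraries of this set, but same-numbered CNO and untreated libraries deviated alike. With 3 libraries per group few other matchings are possible, so this cannot show that the numbers mark pairs. With the number as a block 37 members passed, all higher and with the 20 among them, where 6.01% of all genes passed. All 3 feedback genes rose, as did 3 of 7 sensors, 5 of 12 RNA effectors, 4 of 8 membrane proteins and GTPases, 1 of 4 transcription factors, 1 of 4 genes of ADP-ribosylation and ubiquitin transfer and 3 of 7 others.

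Isg15 had 41.9, 151 and 132 TPM in CNO brains 1, 2 and 3, against 7.72, 15.2 and 13.4 TPM in untreated brains. Usp18, the protease that removes Isg15 and blocks the receptor, had 6.18, 22.6 and 18.8 TPM in CNO brains, against 2.0, 2.57 and 2.54 TPM in untreated brains. CNO brain 1 was the lowest CNO library for both and did not reach the untreated range. Log2 fold changes were 2.91 ± 0.47 for Isg15 (adjusted p = 0.0171) and 2.16 ± 0.41 for Usp18 (adjusted p = 0.031), and the third feedback gene, Herc6, the mouse enzyme that attaches Isg15, rose by 1.29. Irf7 was the transcription factor that passed, with 27.6, 72.5 and 64.3 TPM in CNO brains, against 4.28, 12.5 and 10.8 TPM in untreated brains (2.45 ± 0.44; adjusted p = 0.0255).

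Zbp1, a sensor of left-handed double-stranded nucleic acid, had 5.56, 13.3 and 13.8 TPM in CNO brains, against 0.3, 1.71 and 0.85 TPM in untreated brains. Oasl2 had 24.7, 72.1 and 49.0 TPM in CNO brains, against 5.16, 8.56 and 7.33 TPM in untreated brains. Ifit3 had 38.0, 114 and 100.1 TPM in CNO brains, against 17.2, 18.0 and 18.5 TPM in untreated brains. In all 3 genes CNO brain 1 was the lowest of its group and above every untreated brain. Zbp1 rose by 2.58 ± 0.38 on the log2 scale (adjusted p = 0.013), Oasl2 by 2.53 ± 0.36 (0.0116) and Ifit3 by 2.02 ± 0.36 (0.0252). The other sensors and effectors that rose were Ddx58, which encodes the RNA sensor RIG-I (1.11), Ifi204 (2.50), Ifit3b (1.68), Oas1a (1.90) and Oas1b (1.70).

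Bst2 had 57.1, 150.1 and 122 TPM in CNO brains, against 10.8, 21.1 and 17.5 TPM in untreated brains. Ifitm3 had 134, 255 and 262 TPM in CNO brains, against 43.5, 70.8 and 75.6 TPM in untreated brains. Ifi27l2a had 96.9, 204 and 201 TPM in CNO brains, against 4.9, 22.5 and 18.3 TPM in untreated brains. In each of these the number 1 library was the lowest of its own group, among CNO and untreated brains alike. The log2 fold changes were 2.60 ± 0.37 for Bst2 (adjusted p = 0.0114), 1.74 ± 0.30 for Ifitm3 (0.021) and 3.52 ± 0.52 for Ifi27l2a (0.0134). Lgals3bp had 74.9, 117 and 95.1 TPM in CNO brains, against 18.3, 32.2 and 33.8 TPM in untreated brains, and rose by 1.76 ± 0.25 (0.0117). Gbp2 (1.98), Gbp3 (1.70), Xaf1 (1.48) and Dtx3l (1.11) also rose, Gbp3 just inside the threshold (adjusted p = 0.0493) and Parp9 just outside it (1.34; adjusted p = 0.0504). Cmpk2 was at 0.18.

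Here too no member kept its call in every omission of a library: 0 passed without CNO brain 3, 3 without untreated brain 3, 4 without CNO brain 2, 7 without untreated brain 1 or 2, and 37 without CNO brain 1. With no filter on low values 0 passed. In untreated brain 2, log2 levels as deviations from each gene's mean over the set fell with exonic length (Spearman rho -0.23). The other untreated brains had 0.128 and 0.146 by this measure. The part of this library in the result was not tested. Of the 18 microglial markers 16 rose, with a median log2 fold change of 1.35, and they summed to 1608 to 2006 TPM in CNO brains, against 636 to 721 TPM in untreated brains. Astrocyte markers summed to 4154 to 4311 TPM in CNO brains, against 1952 to 2217 TPM in untreated brains. The 47 interferon-stimulated genes summed to 797 to 1780 TPM in CNO brains, against 263 to 412 TPM in untreated brains. The part of these cell types in the result was not tested. Of the 15 class I antigen presentation genes 9 rose, among them H2-D1, H2-K1 and B2m, as did 5 of 6 class II genes. Cxcl10 was 13.8, 47.7 and 78.8 TPM in CNO brains, against 0.5, 0.73 and 0.41 TPM in untreated brains, and rose (log2 fold change 4.65 ± 0.54; adjusted p = 0.0056). The 21 ligands summed to at most 0.11 TPM in any library of the set.

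The first KA cohort and the CNO set have separate untreated brains. Bst2, Ifi204, Ifi27l2a, Ifit3, Ifit3b, Irf7, Lgals3bp, Oasl2 and Xaf1 passed in both, higher each time. These 9 genes are 75% of the 12 called in the first cohort and 45% of the 20 called in the CNO set. Of all genes tested in both, 16 passed in both, 61.5% of those called in the first cohort and 2.94% of those called in the CNO set. These 16 hold the 9 members, and the 26 first-cohort calls behind the 61.5% hold the 12, so the share is not a separate background.

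**Figure D2:**
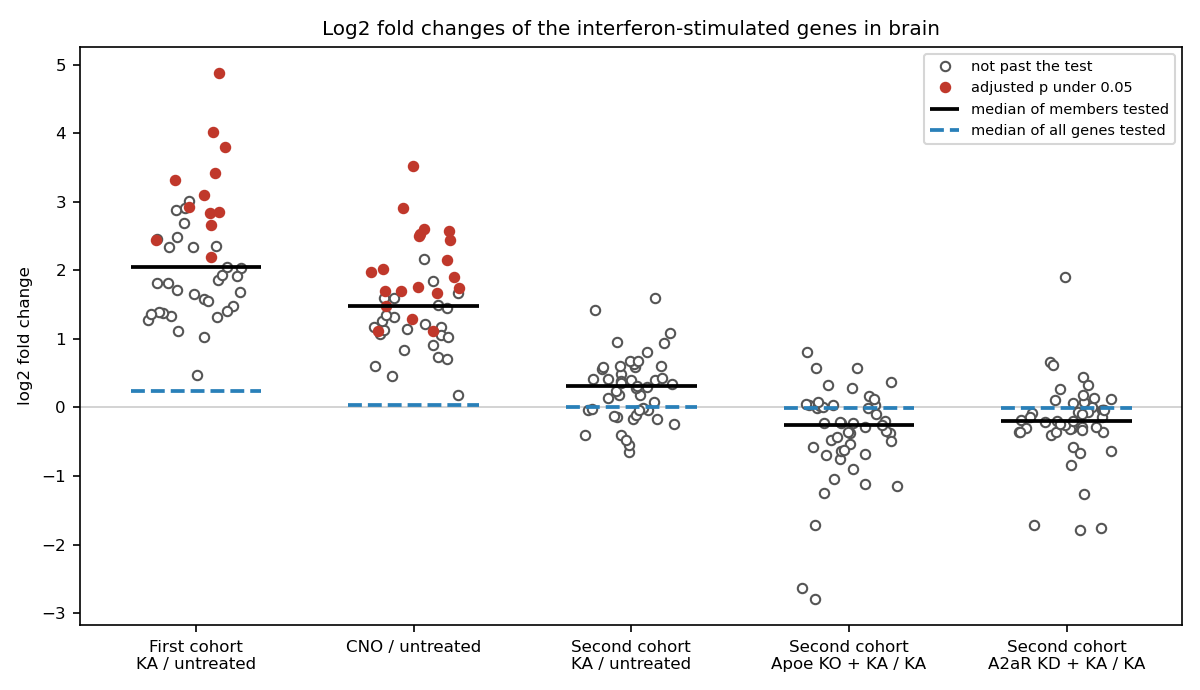
Log2 fold change of every interferon-stimulated gene tested (points) in 5 brain comparisons, filled red where the adjusted p was under 0.05, with the median of the members (black line) and of all genes tested (dashed blue line). The member medians are 2.05 in the first KA cohort and 1.48 in the CNO set, against 0.31 for KA, -0.25 for Apoe knockout with KA and -0.20 for A2aR knockdown with KA in the second cohort. Values of the first cohort and the CNO set are differences of log2(TPM + 1). Those of the second cohort come from counts, so the sizes are not on one scale.

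Fold changes were smaller in the second KA cohort, where they come from counts and not from log2(TPM + 1). None of the 47 passed edgeR's quasi-likelihood test between KA and untreated brain, where 0.0558% of all genes did, and none passed with DESeq2's Wald test. At an unadjusted p under 0.05, 8 were higher and 1 was lower, which is 19.1% of the 47, against 6.72% of all genes, and the median log2 fold change was 0.31. In 4 members every KA library lay above every untreated library (2.99% of all genes tested). The smallest p was that of Ifit3, with 13.6, 10.8, 9.32 and 12.9 TPM in KA brains 1 to 4, against 8.95, 6.30 and 7.53 TPM in untreated brains. The groups did not overlap, and the log2 fold change from counts was 0.63 ± 0.18 (adjusted p = 0.511). Isg15 had 3.15, 4.5, 8.07 and 7.52 TPM in KA brains, against 4.25, 3.43 and 6.76 TPM in untreated brains, which overlap. Bst2 had 12.1, 8.79, 10.2 and 13.4 TPM in KA brains, against 10.5, 7.87 and 8.32 TPM in untreated brains, which also overlap. Ifi27l2a, which led the first cohort, had 4.54, 6.02, 1.38 and 3.49 TPM in KA brains, against 2.74, 1.39 and 3.12 TPM in untreated brains, again with overlap.

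The other 7 genes that were higher at an unadjusted p under 0.05 were Parp14 (log2 fold change 0.68), Ddx58 (0.56), Gbp7 (0.60), Gbp2 (0.94), Xaf1 (0.42), Oasl2 (0.48) and Ifit3b (0.59), and the 1 lower was Ifi203 (-0.65). The 47 summed to 298 to 410 TPM in KA brains, against 309 to 325 TPM in untreated brains. Microglial markers summed to 764 to 1295 TPM in KA brains, against 603 to 698 TPM in untreated brains, with 18 of 18 at a positive log2 fold change and none past the test. Cxcl10 was 1.42, 0.0536, 1.08 and 3.73 TPM in KA brains and 0.639, 0.599 and 1.59 TPM in untreated brains, which overlap. The 2 KA cohorts were tabulated separately, so their difference was not tested.

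With Apoe knocked out in KA-treated mice, none of the 47 passed against KA alone, where 0.112% of all genes did, and none passed with DESeq2. At an unadjusted p under 0.05, 4 of the 47 (8.51%) passed, against 9.33% of all genes in either direction. These 4 were Dhx58, Ifit3, Xaf1 and Parp14, all lower, where 5.27% of all genes were lower. In 6 of the 47 every Apoe knockout library lay below every KA library, as in 5.03% of all genes tested. In 0 all lay above, as in 4.82% of all genes tested. The median log2 fold change of the 47 was -0.25. Ifit3 had 8.65, 6.67 and 7.82 TPM in Apoe knockout brains with KA, against 13.6, 10.8, 9.32 and 12.9 TPM in KA brains. Parp14, a mono-ADP-ribosyltransferase, had 1.29, 1.28 and 0.940 TPM in Apoe knockout brains with KA, against 2.03, 1.98, 1.44 and 2.57 TPM in KA brains. Neither gene's groups overlapped, at log2 fold changes of -0.58 ± 0.18 (adjusted p = 0.34) for Ifit3 and -0.70 ± 0.23 (adjusted p = 0.371) for Parp14. Dhx58 (LGP2), a regulator of RIG-I-like sensing, had 0.889, 0.460 and 2.68 TPM in Apoe knockout brains with KA, against 2.68, 3.93, 2.97 and 2.29 TPM in KA brains, and the third knockout library lay inside the KA range (-1.24 ± 0.38; adjusted p = 0.331). Monocyte and macrophage markers summed to 21.8 to 25.8 TPM in Apoe knockout brains with KA, against 46.4 to 86.8 TPM in KA brains, and class I genes to 422 to 467 TPM in Apoe knockout brains with KA, against 574 to 694 TPM in KA brains; their part in these values was not tested. Class II genes summed to 32.5 to 41.5 TPM in Apoe knockout brains with KA, against 66.7 to 76.5 TPM in KA brains, and 1 of 7 was past the test, lower. Against untreated brain the Apoe knockout brains with KA had 0 members past the test (0.0943% of all genes) and 0 at an unadjusted p under 0.05, with a median of -0.03, and DESeq2 also called 0. The KA brains are the treated group against untreated brain and also the controls of the Apoe knockout and the A2aR knockdown brains, and the untreated brains serve in 2 comparisons, so a high value in KA brains moves these fold changes in opposite directions.

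In the libraries labelled A2aR knockdown with KA, none of the 47 passed edgeR's test against KA, where 0.0386% of all genes did, and 2 (4.26%) were lower at an unadjusted p under 0.05, where 9.25% of all genes passed in either direction and 5.15% were lower. Dtx3l, a ubiquitin ligase that partners Parp9, had 165, 157 and 90 counts in the knockdown libraries, against 442, 315, 425 and 672 counts in the KA libraries, or 0.871, 0.998 and 0.526 TPM in the knockdown libraries, against 2.55, 1.95, 2.42 and 3.87 TPM in the KA libraries. The groups did not overlap, with a log2 fold change of -1.72 ± 0.29 (adjusted p = 0.0754), and DESeq2's Wald test called it (adjusted p = 8.55e-06). Its opposite-strand neighbour Parp9, with which it shares exon bases, had 4.3, 5.32 and 2.32 TPM in the knockdown libraries, against 3.87, 2.70, 2.79 and 4.24 TPM in the KA libraries, with overlap. The other was Ifi203, with 1.2, 2.02 and 1.26 TPM in the knockdown libraries, against 2.84, 4.39, 2.26 and 2.04 TPM in the KA libraries (-0.84; adjusted p = 0.442). The median log2 fold change of the 47 was -0.20. In 8 of the 47 every knockdown library lay below every KA library, as in 7.18% of all genes tested. In 0 all lay above, as in 1.87% of all genes tested.

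In astrocyte cultures without treatment, 22 of 43 genes differed between Apoe knockout and wild type, 17 lower and 5 higher, in a comparison where 44.9% of all genes were called (21.1% lower, 23.9% higher). The median log2 fold change was -0.40, against 0.05 over all genes. The largest fall was that of Cmpk2, with 3.45, 3.47 and 3.74 TPM in knockout cultures, against 17.0, 17.7 and 21 TPM in wild-type cultures (-2.10 ± 0.15; adjusted p = 1.96e-10). Ifi27, a relative of Ifi27l2a, had 129, 112 and 129 TPM in knockout cultures, against 248, 280.3 and 261 TPM in wild-type cultures (-1.09). Oasl2 had 4.6, 3.14 and 3.92 TPM in knockout cultures, against 8.89, 10.02 and 10.2 TPM in wild-type cultures (-1.14 ± 0.26; adjusted p = 0.00104). All 3 were separated without overlap.

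Gbp3 (-1.89), Usp18 (-1.2), Ifit3 (-1.06), Lgals3bp (-1), Ifi44 (-0.97) and Bst2 (-0.79) also fell. Isg15 had 15.4, 15 and 13.4 TPM in knockout cultures, against 26.9, 27.4 and 27.7 TPM in wild-type cultures, and its call (-0.86 ± 0.32; adjusted p = 0.0334) was lost on leaving out any 1 of the 6 libraries (adjusted p up to 0.0895). The 5 that rose were Zbp1 (1.78), Mx2 (0.73), Ifi204 (0.65), Ifi203 (0.49) and Ifitm3 (0.45), so 3 of 7 sensors moved up while 2 moved down. Ifi203 was near the floor, with 0.63, 1.02 and 0.92 TPM in knockout cultures, against 0.5, 0.2 and 0.26 TPM in wild-type cultures. Zbp1 had 4.76, 3.27 and 6.41 TPM in knockout cultures, against 1.15, 0.39 and 0.52 TPM in wild-type cultures. Of the 22 calls 15 held in every omission of a library; besides Isg15, Ifi203, Mx2, Oas1a, Rtp4, Stat2 and Trim25 lost theirs in 1 to 5 omissions, with adjusted p up to 0.167. Stat2 lost it without the second untreated knockout library alone (adjusted p = 0.0602). Microglial markers summed to 494 to 529 TPM in knockout cultures, against 586 to 641 TPM in wild-type cultures, and lymphocyte markers to 47.3 to 49.0 TPM in knockout cultures, against 1.88 to 4.88 TPM in wild-type ones. The part of these marker shifts, the astrocyte marker shift and the sex transcripts in the result was not tested.

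**Figure D3:**
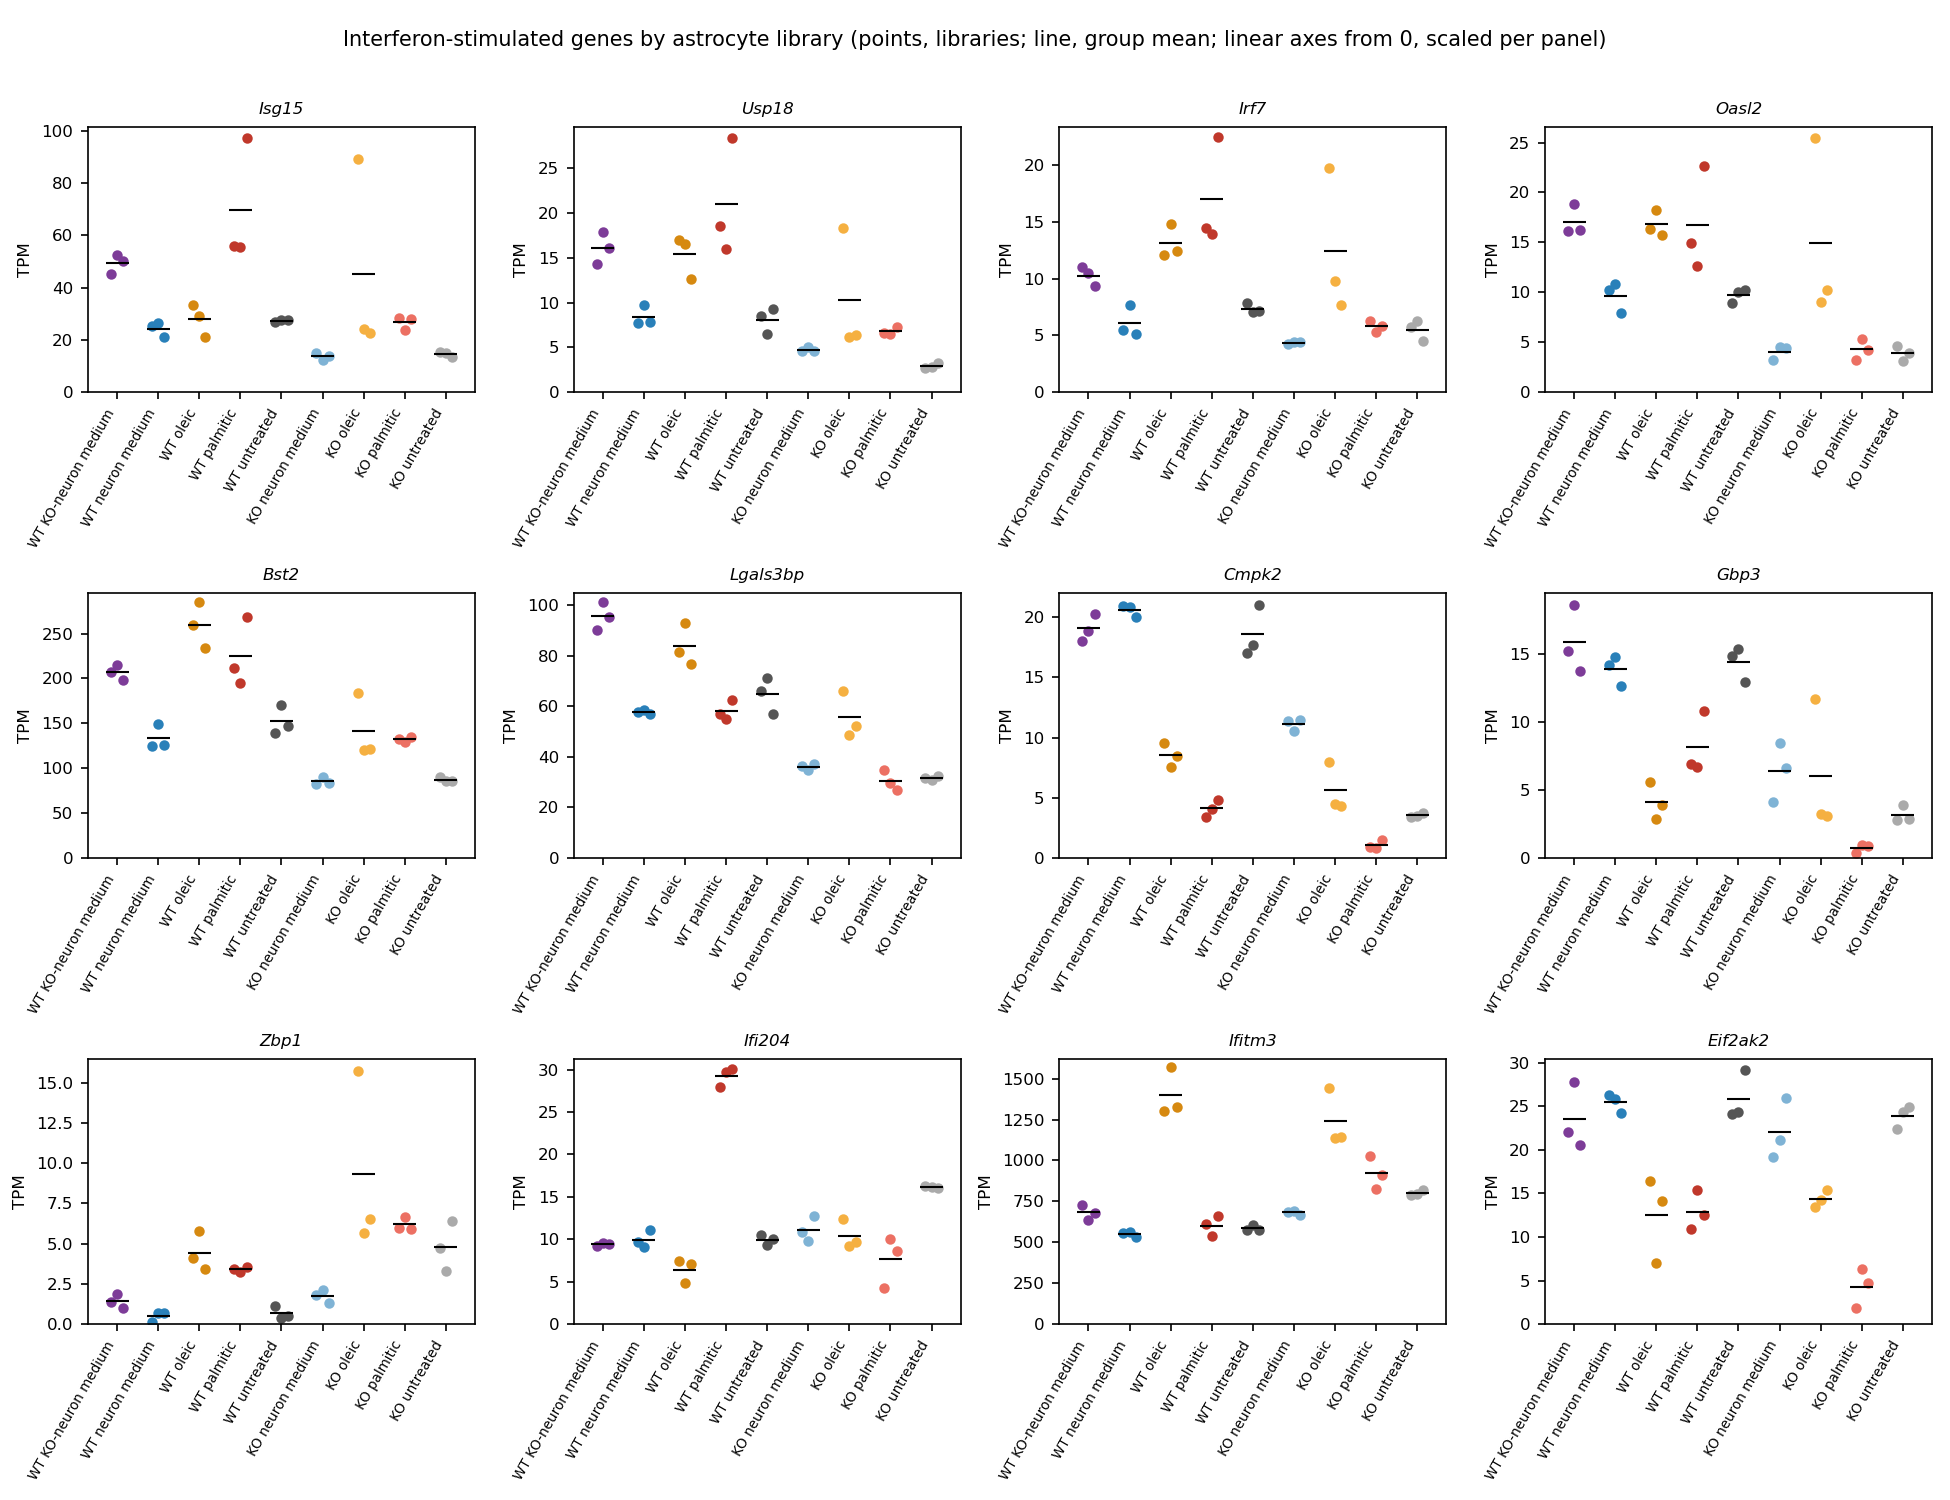
Level of 12 interferon-stimulated genes in TPM (linear axes from 0) in each library of the 9 astrocyte groups, wild-type groups left of knockout groups. Isg15 reaches 88.99 TPM in the first knockout library with oleic acid and 97.36 TPM in the third wild-type library with palmitic acid, each apart from the other libraries of its group.

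Neuron-conditioned medium by itself moved few members. In wild-type cultures none of the 43 passed limma's test, where 0.0371% of all genes did, and 2 (4.65%) were lower at an unadjusted p under 0.05, where 6.38% of all genes passed. In knockout cultures 5 passed, 1 higher and 4 lower, where 31.2% of all genes were called (18.7% higher, 12.6% lower). Cmpk2 rose in knockout cultures with medium, with 11.4, 10.5 and 11.5 TPM, against 3.45, 3.47 and 3.74 TPM in untreated knockout cultures (1.41 ± 0.15; adjusted p = 2.33e-07). In wild-type cultures it had 21, 20.8 and 20.0 TPM with medium, against 17.0, 17.7 and 21 TPM without. The difference between these effects was 1.26 ± 0.22 (adjusted p = 0.000201), 1 of 2 members whose effect of medium differed by genotype (18.5% of all genes, 11.6% more positive and 6.95% more negative), the other being Ifi203 (-0.78). The 4 that fell in knockout cultures were Zbp1 (-1.05), Ifi203 (-0.80), Ifi27l2a (-0.78) and Ifi204 (-0.51). Ifi203 lay near the floor, with 0, 0.04 and 0.16 TPM with medium, against 0.63, 1.02 and 0.92 TPM untreated. It reached 1 TPM only in some knockout libraries, and was at most 0.5 TPM in every wild-type library. Of the 4 calls, 2 were lost in most omissions of a library. Ifi27l2a was at -0.25 (adjusted p = 0.383) without the third library with medium and also lost its call without any 1 untreated library, and Ifi204 lost it in 5 of 6 omissions, all but that of the third library with medium (adjusted p up to 0.149). Monocyte and macrophage markers summed to 82.8 to 87.2 TPM in knockout cultures with medium, against 316 to 334 TPM in untreated knockout cultures. Astrocyte markers summed to 1170 to 1267 TPM with medium, against 482 to 496 TPM untreated. Microglial markers were 379 to 392 TPM with medium, against 494 to 529 TPM untreated, and lymphocyte markers 12.4 to 15.1 TPM, against 47.3 to 49.0 TPM. Xist was 7.12 to 8.55 TPM with medium, against 2.79 to 3.81 TPM untreated. The part of these shifts in the result was not tested.

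Medium from Apoe knockout neurons, set against medium from neurons without that label, went with higher levels of several members in wild-type astrocytes. Lgals3bp, Ifi27, Bst2 and Irf9 rose and none fell, 4 of 43 (9.3%) in a comparison where 1.42% of all genes were called (0.965% higher). Lgals3bp had 90.3, 101 and 95.2 TPM with medium of Apoe knockout neurons, against 57.7, 58.5 and 56.9 TPM with the other medium. Ifi27 had 369.6, 353 and 340.1 TPM with medium of Apoe knockout neurons, against 219, 246 and 224 TPM with the other medium. Bst2 had 207, 215 and 199 TPM with medium of Apoe knockout neurons, against 125, 149 and 126 TPM with the other medium. None of the 3 overlapped, and libraries within each group differed little. Their log2 fold changes were 0.72 ± 0.10 (adjusted p = 0.000412), 0.62 ± 0.09 (0.000436) and 0.64 ± 0.13 (0.0116), and Irf9 was at 0.45 (0.0326).

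Counting these 4, 19 members (44.2%) were higher at an unadjusted p under 0.05 and none was lower, where 7.25% of all genes were higher and 5.62% lower. In 25 of the 47 all libraries with medium of Apoe knockout neurons lay above the others, as in 11% of all genes tested, and in 2 they lay below, as in 12.1% of all genes tested. Isg15 had 45.0, 52.6 and 50.3 TPM with medium of Apoe knockout neurons, against 25.3, 26.3 and 21 TPM with the other medium, and did not pass (1; adjusted p = 0.152). Usp18 had 14.4, 17.9 and 16.1 TPM with medium of Apoe knockout neurons, against 7.72, 9.78 and 7.78 TPM with the other medium, and did not pass either. The calls of Lgals3bp and Ifi27 held in every omission of a library. Bst2 lost its call without the second library with medium of Apoe knockout neurons or without library 1 or 3 with the other medium (adjusted p up to 0.0733), and Irf9 in 5 of 6 omissions, all but that of the second library with the other medium (adjusted p up to 0.154). With median-ratio scaling 2 members passed, and with a fit of these 2 groups alone 8 passed, 3 of the 4 among them. Monocyte and macrophage markers summed to 365 to 392 TPM with medium of Apoe knockout neurons, against 153 to 191 TPM with the other medium, with 2 of 4 tested past the test, and microglial markers to 638 to 724 TPM, against 546 to 627 TPM. Their part in the result was not tested.

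With oleic acid in wild-type astrocytes 14 members rose (32.6% of the 43) and 9 fell (20.9%), where 59.8% of all genes were called (31.2% higher, 28.6% lower), and the median was 0.01. These shares were near or below those of all genes. All 4 transcription factors rose, Stat2 by 0.89 ± 0.11 (adjusted p = 4.35e-07), Irf7 by 0.75, Irf1 by 0.54 and Irf9 by 0.35. Ifitm3 rose most firmly, with 1304, 1571 and 1324 TPM with oleic acid, against 575, 605 and 575 TPM in untreated cultures (1.25 ± 0.09; adjusted p = 2.38e-10). Bst2 had 260, 286 and 234 TPM with oleic acid, against 139.8, 170.1 and 147 TPM in untreated cultures (0.77 ± 0.13; adjusted p = 2.84e-05). Both were separated without overlap. Of 11 RNA effectors, 6 fell and 1 rose: Samd9l (-1.88), Ifit2 (-1.47), Eif2ak2, which encodes the translation-blocking kinase PKR (-1.06), Cmpk2 (-1.03), Ifit3b (-0.93) and Ifit3 (-0.82) fell, and Oasl2 (0.73) rose. Eif2ak2 had 16.5, 6.99 and 14.2 TPM with oleic acid, against 24.2, 24.4 and 29.1 TPM in untreated cultures. Gbp3 fell by 1.62 on the log2 scale, and Isg15 was at 0.00, with 33.1, 29.1 and 21.2 TPM with oleic acid and 26.9, 27.4 and 27.7 TPM in untreated cultures. Of the 23 calls 18 held in every omission of a library, and Gbp7, Ifi204, Ifit3, Oasl2 and Xaf1 lost theirs without the second oleic acid library or the first untreated library (adjusted p up to 0.088).

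In Apoe knockout astrocytes oleic acid raised 20 members and lowered 3, where 41.8% of all genes were called (21.7% higher, 20.1% lower), and the median was 0.49, against -0.03 over all genes. All 4 transcription factors rose here too. A single library set much of the size: Isg15 had 89.0, 24.1 and 22.5 TPM with oleic acid, against 15.4, 15 and 13.4 TPM in untreated knockout cultures, and Oasl2 had 25.5, 9.01 and 10.3 TPM with oleic acid, against 4.6, 3.14 and 3.92 TPM in untreated knockout cultures. The first library was the high one for both, and its summed level of the 47 was 2724 TPM, against 1870 to 1873 TPM in the other 2. Interferon-induced chemokines in it summed to 111 TPM, against 6.23 and 8.84 TPM in the other 2. With all 3 libraries Oasl2 rose by 1.57 ± 0.26 (adjusted p = 8.44e-05), Usp18 by 1.37 ± 0.26 (0.000327) and Isg15 by 1.27 ± 0.32 (0.00376). Without the first library 18 members passed, 15 higher and 3 lower, 17 of them among the 23, and the median was 0.125. Isg15 was then at 0.64, Oasl2 at 1.13, Usp18 at 0.90 and Irf7 at 0.58, all still past the test, while Cmpk2 (0.26), Zbp1 (0.32), Gbp2 (0.18), Rtp4 (0.37), Ifi27l2a (0.71) and Eif2ak2 (-0.65) were not. Ifi204 lost its call without the second oleic acid library (adjusted p = 0.0586), Eif2ak2 lost its call on leaving out any 1 of the 6 libraries (adjusted p up to 0.0945), and 16 of the 23 calls held in every omission. Lgals3bp, with 66.0, 48.8 and 52.3 TPM with oleic acid, against 31.8, 31.0 and 32.5 TPM in untreated knockout cultures, rose by 0.78 ± 0.10 (adjusted p = 6.56e-06) and stayed past the test without the first library (0.65).

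The 2 genotypes have separate untreated cultures, so their oleic acid calls can be set side by side. In both genotypes 16 members were called, 69.6% of the 23 in each, and 15 had the same sign. Of all genes called, the shares called in both were 74.6% in knockout and 52% in wild-type cultures, with 89.1% of them of the same sign. Among the members, Bst2, Ifi35, Ifitm3, Irf1, Irf7, Irf9, Lgals3bp, Oasl2, Stat2, Trim25, Usp18 and Zbp1 rose, and Eif2ak2, Ifi204 and Samd9l fell. Cmpk2 went opposite ways, 0.50 in knockout and -1.03 in wild-type cultures. The effect differed by genotype in 10 members (29.6% of all genes, 13.8% more positive and 15.8% more negative), 9 more positive and 1 more negative in knockout cultures. Cmpk2 (1.53), Gbp3 (2.16), Ifit3b (1.45), Oas1a (0.91) and Ifitm3 (-0.63) kept that call in every omission of a library. Isg15 (1.27) lost it in 9 omissions, with 0.64 and adjusted p = 0.0681 without the first knockout library with oleic acid, Lgals3bp in 7, Ifi27 in 6, Ifit3 in 4 and Samd9l in 1, that of the first untreated wild-type library (adjusted p = 0.0501). Microglial markers summed to 1316 to 1396 TPM in knockout cultures with oleic acid, against 494 to 529 TPM untreated, and to 1030 to 1151 TPM in wild-type cultures with oleic acid, against 586 to 641 TPM untreated. Monocyte and macrophage markers were 715 to 1474 TPM in knockout cultures with oleic acid, against 316 to 334 TPM untreated, and 562 to 642 TPM in wild-type cultures with oleic acid, against 188 to 191 TPM untreated. Astrocyte markers were 1085 to 1118 TPM in wild-type cultures with oleic acid, against 2130 to 2390 TPM untreated. Ddx3y was 0.52 to 1.35 TPM in wild-type cultures with oleic acid, against 14.9 to 19.1 TPM untreated, and Xist 6.57 to 15 TPM with oleic acid, against 30.7 to 36.8 TPM untreated. In knockout cultures Ddx3y was 14.2 to 15.2 TPM with oleic acid, against 31.3 to 33.5 TPM untreated. Of the 15 class I genes 12 rose with oleic acid in wild-type cultures (median 0.64). The part of the marker and sex transcript shifts in the result was not tested.

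**Figure D4:**
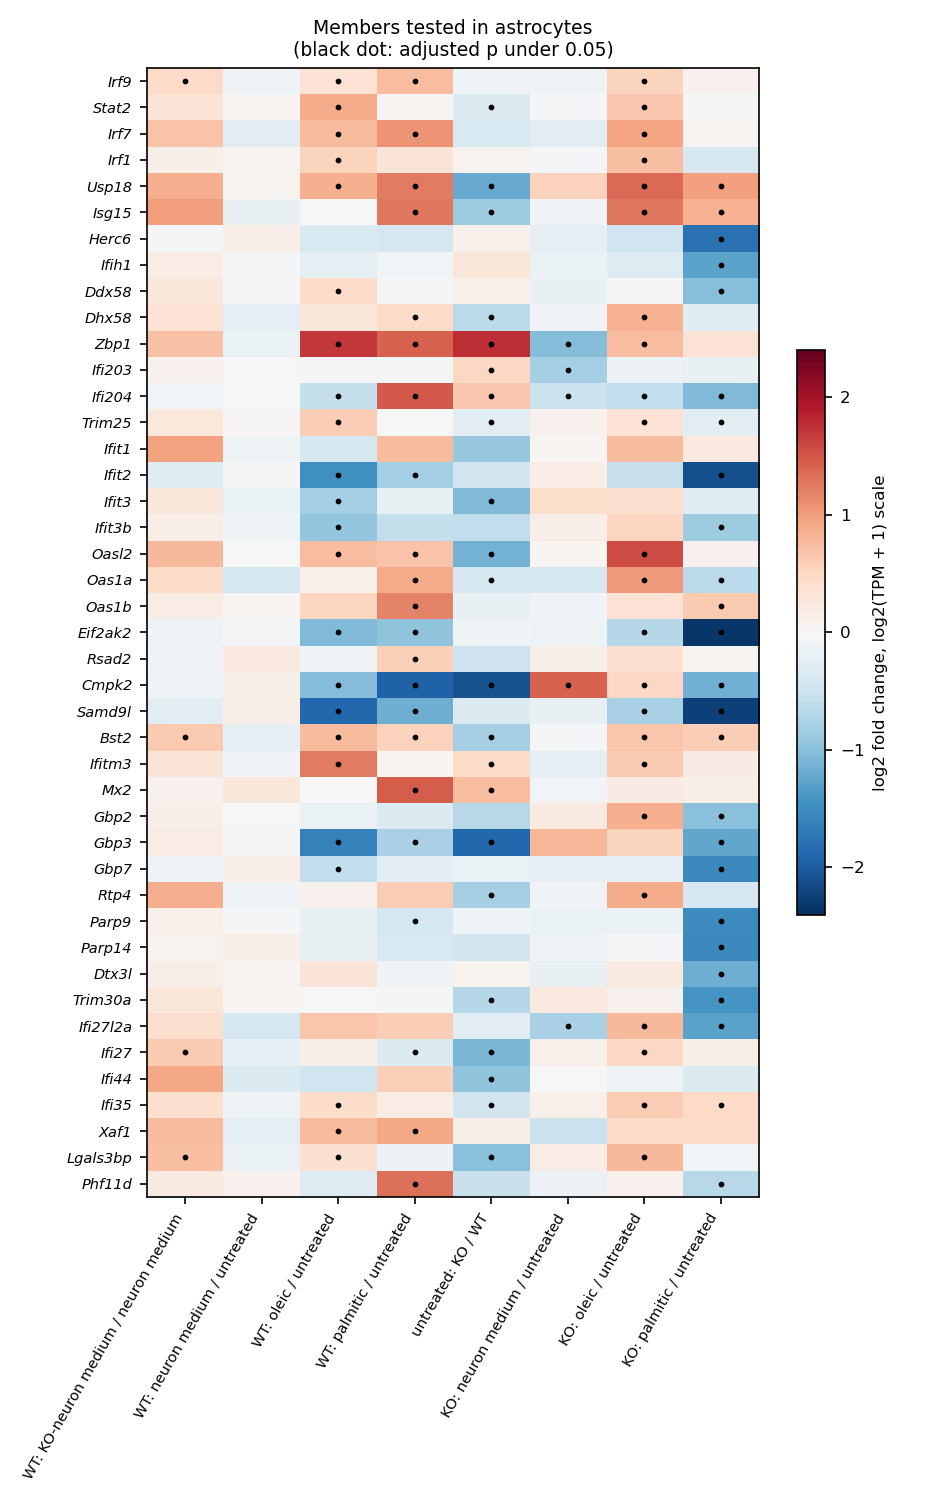
Log2 fold change of the 43 interferon-stimulated genes tested (rows, by role) in 8 astrocyte comparisons (columns), with a dot where the adjusted p was under 0.05. The column of wild-type neuronal medium holds 0 dots, the oleic acid columns 23 each, and the palmitic acid columns 25 in knockout and 22 in wild-type cultures.

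Palmitic acid raised 15 members and lowered 7 in wild-type astrocytes, where 59.8% of all genes were called (26.8% higher, 33.1% lower). The median was 0.07, against -0.08 over all genes, and with median-ratio scaling 18 rose and 4 fell. Ifi204 had 28, 29.7 and 30.0 TPM with palmitic acid, against 10.5, 9.32 and 9.99 TPM in untreated cultures (1.47 ± 0.19; adjusted p = 5.66e-07). Isg15 had 55.8, 55.6 and 97.4 TPM with palmitic acid, against 26.9, 27.4 and 27.7 TPM in untreated cultures (1.27 ± 0.32; adjusted p = 0.00178). Usp18 had 18.6, 16.0 and 28.4 TPM with palmitic acid, against 8.48, 6.45 and 9.3 TPM in untreated cultures (1.25 ± 0.26; adjusted p = 0.000263). The groups did not overlap in any of the 3, and the third palmitic library was the highest for each. Mx2 (1.45), Zbp1 (1.41), Phf11d (1.31), Oas1b (1.2), Irf7 (1.08) and Irf9 (0.75) rose as well.

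The largest fall was again that of Cmpk2, with 3.43, 4.1 and 4.83 TPM with palmitic acid, against 17.0, 17.7 and 21 TPM in untreated cultures (-1.94 ± 0.15; adjusted p = 4.32e-10). Samd9l (-1.17), Eif2ak2 (-0.96), Ifit2 (-0.81), Gbp3 (-0.78), Parp9 (-0.42) and Ifi27 (-0.33) fell as well, so 4 of 11 RNA effectors fell and 4 rose. Of the 22 calls 17 held in every omission of a library, and Dhx58, Gbp3, Oasl2, Parp9 and Rsad2 lost theirs in 2 to 5 omissions, the third palmitic library among them for Dhx58, Oasl2 and Rsad2 (adjusted p up to 0.166). Cxcl10 rose to 91.1, 97.1 and 138 TPM with palmitic acid, against 16.3, 16.7 and 15.9 TPM in untreated cultures (2.64; adjusted p = 0.000449). Microglial markers summed to 1129 to 1269 TPM with palmitic acid, against 586 to 641 TPM in untreated cultures, and astrocyte markers to 656 to 804 TPM with palmitic acid, against 2130 to 2390 TPM in untreated cultures. Ddx3y was 3.22 to 4.49 TPM with palmitic acid, against 14.9 to 19.1 TPM in untreated cultures. The part of these in the result was not tested.

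In Apoe knockout astrocytes palmitic acid lowered 20 members and raised 5, where 55.4% of all genes fell and 19.9% rose, so the share called, 58.1%, was below the 75.3% of all genes. The median was -0.34, against -0.47 over all genes. Eif2ak2 had 1.84, 6.28 and 4.69 TPM with palmitic acid, against 22.4, 24.3 and 24.9 TPM in untreated knockout cultures (-2.34 ± 0.26; adjusted p = 6.2e-08). Samd9l, whose human counterpart restricts viral translation, had 0.31, 1.88 and 1.07 TPM with palmitic acid, against 8.6, 8.3 and 8.4 TPM in untreated knockout cultures (-2.25 ± 0.23; adjusted p = 1.85e-08). All 4 genes of ADP-ribosylation and ubiquitin transfer fell, Parp14 by 1.55, Parp9 by 1.52, Trim30a by 1.41 and Dtx3l by 1.17 on the log2 scale. The 5 that rose were Usp18 (0.99), Isg15 (0.83), Oas1b (0.64), Bst2 (0.59) and Ifi35 (0.47). Isg15 had 28.4, 23.8 and 28 TPM with palmitic acid, against 15.4, 15 and 13.4 TPM in untreated knockout cultures. Bst2 had 133, 129 and 135 TPM with palmitic acid, against 90.2, 86.2 and 86.1 TPM in untreated knockout cultures. The groups did not overlap in either. Of the 25 calls 21 held in every omission of a library; Isg15, Oas1b, Ifit3b and Trim25 lost theirs without the first palmitic library, among others (adjusted p up to 0.18).

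Scaling and transcript length bear on this comparison. Median-ratio scaling moved the median of all genes to -0.08, and relative to it 15 members were higher and 17 lower. Stat2, Trim25 and Lgals3bp turned from lower to higher under that scaling (0.50, 0.26 and 0.48), and only Trim25 of these had been called before. With the length trend removed, an alternative chosen after seeing the data, 15 were higher and 18 lower. The 5 members that rose had a median exonic length of 1727 bases, against 4685 bases for the 20 that fell. Over all genes past the filter, log2 levels were set against length as deviations from each gene's mean over all astrocyte libraries. The Spearman rho was -0.249 to -0.107 in these 3 palmitic libraries, against 0.167 to 0.192 in untreated knockout cultures. Genes at 1 TPM numbered 12057 to 12915 with palmitic acid, against 14422 to 14488 untreated. Astrocyte markers summed to 69.4 to 86.7 TPM with palmitic acid, against 482 to 496 TPM untreated, and microglial markers to 128 to 134 TPM with palmitic acid, against 494 to 529 TPM untreated, with 17 of 17 tested lower. Xist was at most 0.05 TPM with palmitic acid, against 2.79 to 3.81 TPM untreated, and Ddx3y 1.86 to 15.7 TPM with palmitic acid, against 31.3 to 33.5 TPM untreated. The part of these in the result was not tested.

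**Figure D5:**
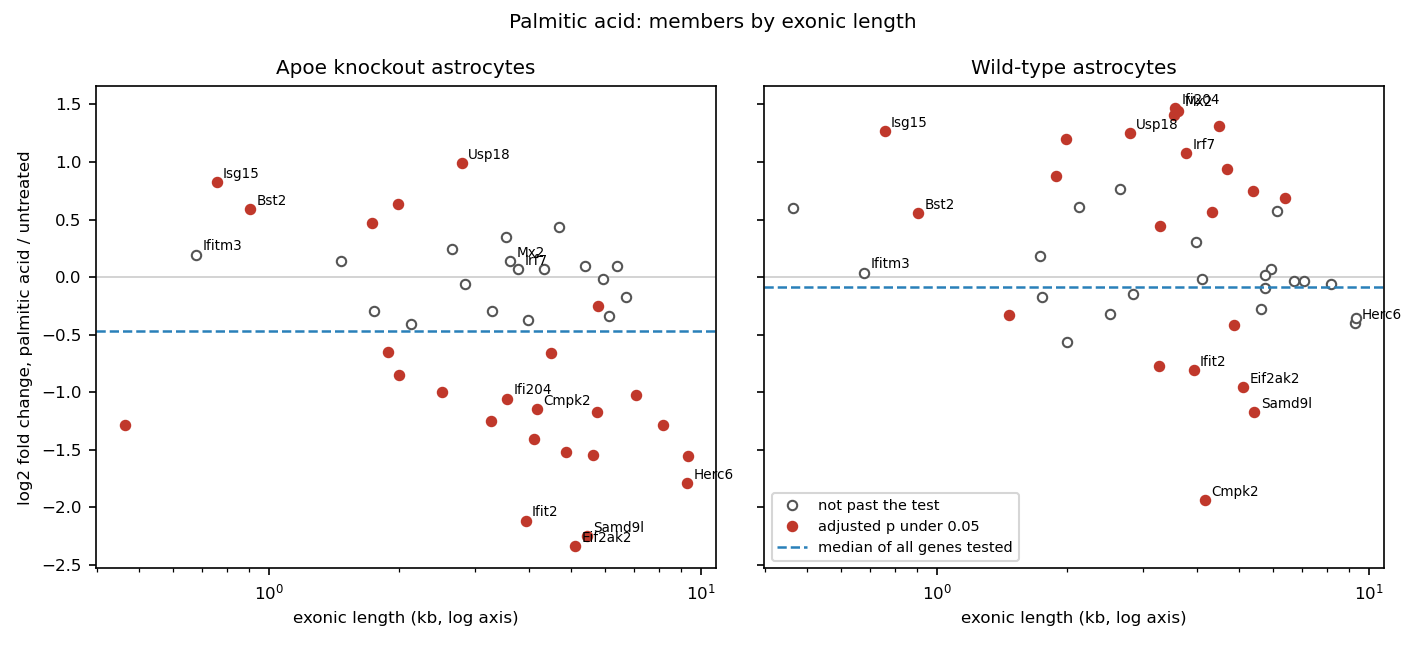
Log2 fold change of each interferon-stimulated gene tested, palmitic acid over untreated, against its exonic length in kb (log axis), for Apoe knockout astrocytes (left) and wild-type astrocytes (right), filled where the adjusted p was under 0.05, with the median of all genes tested as a dashed line. In knockout cultures the 5 called higher have a median length of 1727 bases and the 20 called lower one of 4685 bases, while in wild-type cultures those called higher and lower have medians of 3561 and 4163 bases.

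Both genotypes called 13 members with palmitic acid, 52% of the 25 in knockout and 59.1% of the 22 in wild-type cultures, and 10 had the same sign. Over all genes these shares were 64.4% and 81.1%, with 83.3% of the same sign. Bst2, Isg15, Oas1b and Usp18 rose in both, and Cmpk2, Eif2ak2, Gbp3, Ifit2, Parp9 and Samd9l fell in both. Ifi204, Oas1a and Phf11d fell in knockout and rose in wild-type cultures. In knockout cultures 2 of these lay near the floor. Oas1a had 0.51, 0.32 and 0.19 TPM with palmitic acid, against 0.89, 1.07 and 1.35 TPM untreated. Phf11d had 0.06, 0.13 and 0.38 TPM with palmitic acid, against 1.06, 0.66 and 0.92 TPM untreated. Ifi204 had 4.28, 10.1 and 8.62 TPM with palmitic acid, against 16.3, 16.2 and 16.1 TPM in untreated knockout cultures, and the difference between the genotypes' effects was -2.53 ± 0.26 (adjusted p = 6.37e-08). That difference passed for 25 members, 23 more negative and 2 more positive in knockout cultures, where 57.6% of all genes passed (43.2% more negative, 14.3% more positive). With median-ratio scaling it was 16 more negative and 5 more positive. The 21 interferon ligands summed to at most 1.48 TPM in any astrocyte library, and none was tested.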

How the data were processed

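Brain was flash-frozen, RNA taken with Trizol, and TruSeq libraries made from 1 ug of RNA, per the labels' protocols. Per the submitters' processing notes, HISAT2, StringTie and RSEM were used with build mm10; no version or role is stated. The authors deposited TPM per gene for the CNO set, the astrocytes and the first KA cohort, and whole-number counts beside TPM for the second KA cohort. Samples were grouped by title and characteristics, and tests stayed within a table. TPM were tested with limma 3.58.1 (R 4.3.3) on log2(TPM + 1), which understates changes of low genes, for genes at 1 TPM in at least 3 libraries, and counts with edgeR 4.0.16 (quasi-likelihood, TMM, its own filter). Groups of a table shared one spread. P-values were adjusted over all genes by the Benjamini-Hochberg method, with a threshold of 0.05 (called). DESeq2 1.42.0, other scalings, filters and pseudocounts, omission of libraries and a length-trend removal were alternatives. In the CNO set, deviations of same-numbered libraries correlated (0.119 to 0.244 for the 3 pairs), but no label says that the numbers mark pairs. Members and lists were chosen with earlier results of these data known. Any of the 47 could be named, with full values for up to 12 called genes of smallest p per comparison and 20 genes of fixed roles. Fits were tested on simulated data.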

Additional observations from a re-analysis of the deposited data

Results flagged for a closer look

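Some values stood apart or differed between genotypes by a test of the difference itself. Among the 4 KA brains of the second cohort, 4 of 47 genes (8.51%) had 1 library far from the rest, a share no higher than the 9.07% of all genes tested, and chance gives about 1 group in 20. They were Ddx58 at 4.24 TPM in library 3, Zbp1 at 2.34 TPM in library 2, and Mx1 at 0.517 TPM and Ifi44 at 0.999 TPM in library 4. No explanation was tested for any of these.

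The effect of neuronal medium differed between Apoe knockout and wild-type astrocytes, on the log2 scale as knockout minus wild type, by -0.78 for Ifi203 and 1.26 for Cmpk2. Ifi203 was at most 1.02 TPM in any library of the groups compared. For oleic acid the differences were 1.27 for Isg15, 1.21 for Ifit3, 1.45 for Ifit3b, 0.91 for Oas1a, 1.53 for Cmpk2, 1.10 for Samd9l, -0.63 for Ifitm3, 2.16 for Gbp3, 0.36 for Ifi27 and 0.41 for Lgals3bp. Of these, Isg15, Ifit3, Samd9l, Ifi27 and Lgals3bp lost their call in 1 or more omissions of a library.

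For palmitic acid the positive differences were 0.79 for Cmpk2 and 0.46 for Ifi27. The transcription factors were at -0.65 (Irf9), -1 (Irf7) and -0.68 (Irf1), and Herc6 at -1.39. Among sensors the values were -1.22 for Ifih1, -1 for Ddx58, -0.74 for Dhx58, -1.07 for Zbp1 and -2.53 for Ifi204. Among RNA effectors they were -1.31 for Ifit2, -1.53 for Oas1a, -1.38 for Eif2ak2 and -1.07 for Samd9l. Mx2 was at -1.31, Gbp7 at -1.27 and Rtp4 at -1.01. Parp9 was at -1.10, Parp14 at -1.20, Dtx3l at -1.08 and Trim30a at -1.39. The rest were Ifi27l2a at -1.89, Ifi44 at -0.91 and Phf11d at -1.98. In the knockout groups compared Oas1a was at most 1.35 TPM and Phf11d at most 1.06 TPM.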

How the results depend on the processing

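Counts of called members moved by over 1.5 times or crossed 0 under these alternatives. Without a filter on low values, 1 passed in the first KA cohort, 0 in the CNO set, 3 for medium in knockout astrocytes and 6 for the oleic acid difference between genotypes. With the length trend removed, 20 passed in the first cohort. With the replicate block, 37 passed in the CNO set and 1 in the first cohort, whose numbers share only a label (same-number correlations -0.081 to -0.011), and the block changed no other count by over 1.5 times. The astrocyte and second-cohort numbers did not pair libraries. No paired analysis was possible because the A2aR knockdown and KA libraries share fewer than 2 numbers. DESeq2's Wald test called 1 for A2aR knockdown. Median-ratio scaling left 2 for medium of Apoe knockout neurons and 1 for the medium difference between genotypes. Fits of only the groups compared gave 8, 10 and 7 for medium of Apoe knockout neurons, medium in knockout cultures and the medium difference.

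With palmitic acid in knockout cultures Stat2, Trim25 and Lgals3bp reversed to 0.50, 0.26 and 0.48 under median-ratio scaling, and Stat2 and Trim25 to 0.53 and 0.28 with the length trend removed.

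Leaving out 1 library at a time gave 0 to 24 calls in the first KA cohort, 0 to 37 in the CNO set and 0 to 0 in the second cohort's comparisons and for medium in wild-type cultures. It gave 2 to 4 for medium of Apoe knockout neurons, 20 to 25 and 18 to 21 for oleic and palmitic acid in wild-type cultures, 15 to 19 for genotype, and 2 to 5, 18 to 26 and 21 to 26 for medium, oleic and palmitic acid in knockout cultures. The genotype differences gave 1 to 2, 7 to 13 and 22 to 27 for the same treatments. Omitting a library leaves 2 in its group, which are assumed to vary like the rest. A tally of single genes over all alternatives took only members called in a comparison's main fit and the 20 of fixed roles. In it 5132 values kept their call or stayed uncalled with a move under 1 SE. Another 393 lost the threshold, 81 gained it, 77 stayed uncalled with a larger move and 5 reversed. Calls gained by other members are not among the 81. Reversal was checked only where a fit called the gene, so uncalled values that changed sign are not among the 5. Causes were not tested. With unknown depth in 3 tables, no counting error could be given there.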

Other observations

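In the second KA cohort the deposited TPM and counts gave different pictures for Irf7, Usp18 and Lgals3bp, which were chosen after their values were seen. Irf7 had 3.80, 2.76, 3.63 and 4.09 TPM in KA brains, against 1.24, 2.52 and 2.25 TPM in untreated brains, without overlap, while its counts were 133, 120, 144 and 141 in KA brains, against 79, 140 and 143 in untreated brains, and the log2 fold change from counts was 0.19 ± 0.30. Usp18 had 3.12, 2.67, 3.78 and 3.01 TPM in KA brains, against 2.09, 1.52 and 1.08 TPM in untreated brains, without overlap, while its counts were 151, 84, 163 and 110 in KA brains, against 101, 84 and 35 in untreated brains, with overlap, and the log2 fold change from counts was 0.80 ± 0.46. Lgals3bp had 21.7, 25.0, 23.1 and 31.0 TPM in KA brains, against 19.3, 26.8 and 24.6 TPM in untreated brains, a ratio of means of 1.07, while the log2 fold change from counts was -0.47 ± 0.27.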
